A study of Mus musculus with 2 samples.

Results

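The matrix metalloproteinases (MMP) and the proteases of the ADAM, ADAMTS and ADAMTSL families were examined in islet grafts taken at 6 hours after transplantation. Members were chosen by gene symbol from the platform annotation, and no signal entered that rule. Earlier results of these data were known when the families were chosen. The symbols took 67 of 18193 genes, represented by 112 of 34945 probe sets that carried 1 symbol. They comprised 18 MMP genes, 29 ADAM genes and 20 ADAMTS and ADAMTSL genes. Islets of wild-type C57BL/6 donors had been placed under the left kidney capsule, 50 per recipient. One recipient condition was a normoglycemic male wild-type C57BL/6 mouse, and the other was a hyperglycemic male mouse heterozygous for Akita, a missense mutation of the insulin gene Ins2. Total RNA of each graft was hybridized to 1 array, so that each condition had 1 sample and no replicate. The labels of these samples give neither the age of the recipients nor the number of mice behind each array. Blood glucose and the Akita genotype differed together and cannot be told apart.

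MMPs are zinc-dependent enzymes that are made as inactive precursors and cleave collagen, gelatin, elastin and other proteins of the extracellular matrix. Most are secreted, and the membrane-type MMPs are anchored at the cell surface. ADAMs are membrane proteins with a metalloprotease and a disintegrin domain, and the active ones release cytokines, growth factors and adhesion molecules from the cell surface. ADAMTS enzymes are secreted and cleave proteoglycans and procollagens. The label protease does not hold for every member, since the ADAMTSL proteins lack the protease domain and Adam11, Adam22 and Adam23 encode proteins without a working zinc site. Leukocytes carry several of these enzymes into inflamed tissue, and islets are isolated from the pancreas by digestion with collagenase.

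Values are MAS5 signals on a linear scale, and ratios are given as hyperglycemic over normoglycemic. Where more than 1 probe set carried a symbol, the one with the highest mean log2 signal over both arrays was taken. Signals of different genes come from different probes and were not compared with each other. The array medians, 82.9 (normoglycemic) and 91.5 (hyperglycemic), served as the floor for a low signal. Genes at or above the floor on at least 1 array are called measured. Because no replicate was available, no test could be made, and the only measure of error was the scatter between probe sets of the same gene within the arrays. This scatter, as 1 SD of the ratio, was 2.95-fold at signals of 16 to 64, 1.55-fold at 64 to 256, 1.27-fold at 256 to 1024 and 1.17-fold above 1024. It is a technical spread and does not stand for the difference between mice.

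Both grafts gave signals for their labelled tissue and for kidney. All 8 islet endocrine markers and all 8 proximal tubule markers with a probe set reached the floor on both arrays. The endocrine markers had a median log2 ratio of 0.88 and the tubule markers 0.03. Control probe sets at the 3′ end over those at the 5′ end, a reading of RNA integrity, gave ratios of 3.54 and 3.99 for Actb on the normoglycemic and the hyperglycemic array and of 1.30 and 1.76 for Gapdh.

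Many members of these families gave low signals in both grafts. Of 67 genes, 30 were measured, which is 44.8% beside 68.9% of all 18193 genes, 20 of them with both signals at the floor, 5 with only the signal of the hyperglycemic mouse and 5 with only that of the normoglycemic mouse. The remaining 37 were below the floor on both arrays. Of the 20 genes at the floor on both arrays, 17 had ratios within 1.5-fold of equality, which is 85% beside 80.7% of all genes at the floor on both arrays. Over 2-fold higher in the graft of the hyperglycemic mouse were Adam8, Adamtsl4 and Mmp8, which is 3 of 20 members beside 3.53% of 10816 genes at the floor on both arrays. Over 2-fold lower were 0 of 20, beside 1.89% of these genes. Among the 30 measured members, 7 were over 2-fold higher, beside 7.56% of 12538 measured genes, and 2 were over 2-fold lower, beside 5.54%. The additional 4 higher and both lower members reached the floor on 1 array only and had to differ in order to be counted, so these counts are not evidence of a direction.

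**Figure D1:**
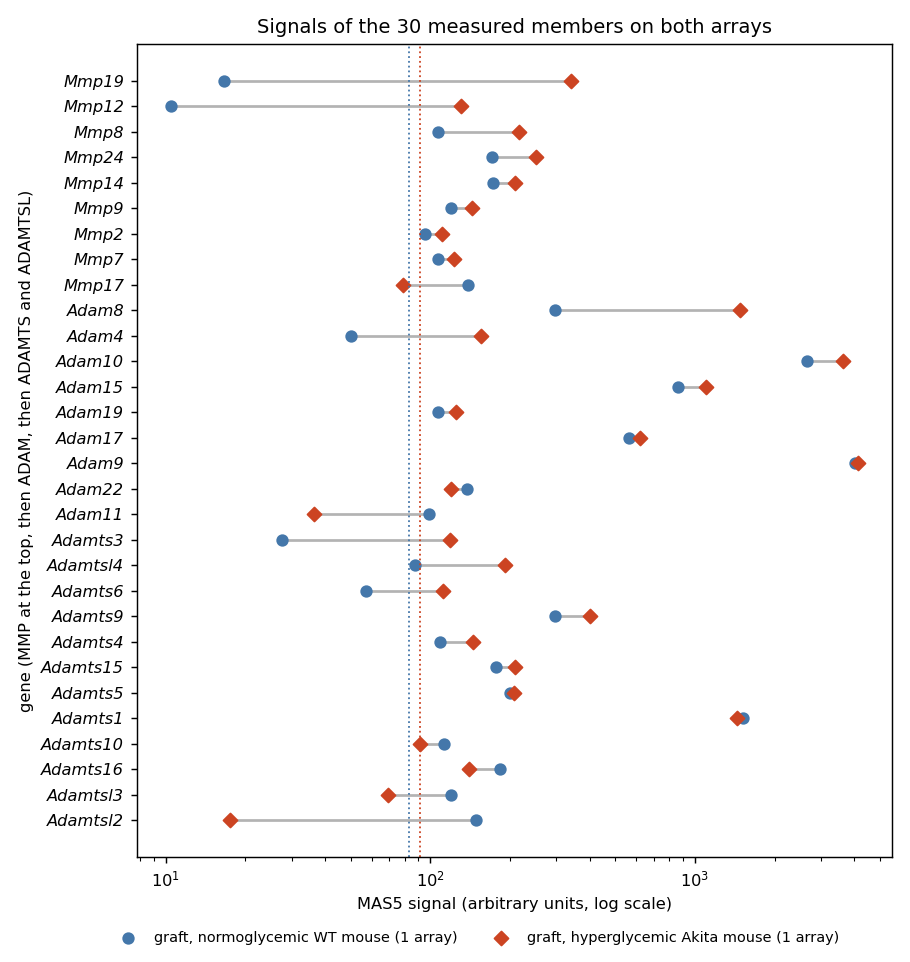
MAS5 signal (x axis, log scale) of the 30 measured member genes in the graft of the normoglycemic mouse (circles) and of the hyperglycemic mouse (diamonds), 1 array each, with grey bars joining both signals of a gene and dotted lines at the array medians of 82.9 and 91.5. Most pairs lie close together, Adam8 is the widest pair with both signals above the medians, and Mmp19, Mmp12 and Adamtsl2 are wide pairs with 1 signal below them.

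The median log2 ratio of the 30 measured members was 0.25, and that of all measured genes was -0.06. It was 0.27 for the MMP, 0.22 for the ADAM and 0.15 for the ADAMTS and ADAMTSL genes, but all of these medians were below 0 when the arrays were centred on islet endocrine genes, from -0.60 to -0.73, where that of all measured genes was -0.94. Such centring moved the median of all genes by -0.88, and division of each array by its median moved it by -0.14. The other scalings moved it by less than 0.1. Relative to all genes, the member median was 0.31 higher as deposited and under both of these, and 0.24 higher after quantile normalization and after loess correction. Of the 20 members at the floor on both arrays, 17 had a ratio above 1, beside 44.5% of all genes at the floor on both arrays. When each array was divided by its median, 14 of 20 were above 1, beside 31.55% of all such genes. Only 3 of 20 were above 1 after centring on islet endocrine genes, beside 4.67% of all genes. Centring and division by the median shift every gene alike, so the turn in direction follows from the size of the shift and the unchanged distance of 0.31 from all genes follows by construction.

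**Figure D2:**
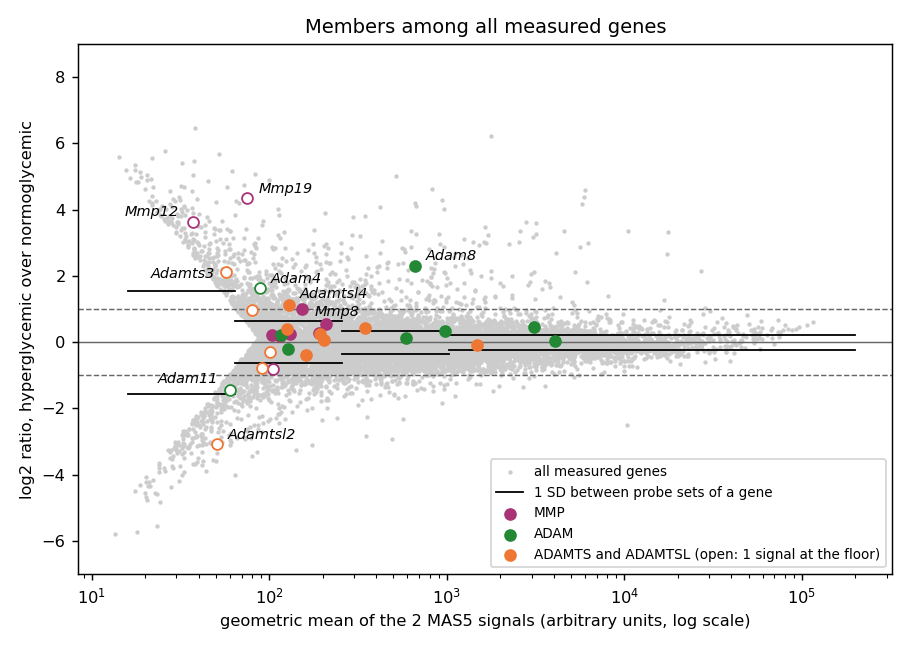
Log2 ratio of hyperglycemic over normoglycemic (y axis) against the geometric mean of both signals (x axis, log scale) for 12538 measured genes in grey and 30 members in color, filled when both signals reached the array medians and open when 1 did. Black lines mark 1 SD between probe sets of a gene in each signal range and dashed lines mark 2-fold, and Adam8, at 2.31, lies farther from 0 than any other filled member.

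Among the measured ADAM sheddases, Adam8 had the widest ratio. Adam8 encodes a protease of the surface of monocytes, macrophages and neutrophils that releases adhesion molecules and cytokine receptors. Its 1 probe set had a signal of 297 in the graft of the normoglycemic mouse and 1475 in that of the hyperglycemic mouse, a 4.96-fold difference. The log2 ratio of 2.31 was 6.66 times the SD between probe sets at this signal. Of 10 alternative treatments of the data, 4 left the value as it was, since the gene has 1 probe set and both signals at the floor, and under the 6 that moved it the log2 ratio lay between 1.43 and 2.36, over 2-fold in all 6. In RNA of whole grafts, more cells that express a gene cannot be told apart from more RNA per cell.

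The other sheddases that reached the floor on both arrays were close to equal. Adam10, which cleaves Notch, cadherins and the amyloid precursor protein, had a signal of 2649 in the normoglycemic and 3615 in the hyperglycemic mouse, and its log2 ratio of 0.45 was 2.01 times the SD between probe sets. A further probe set of Adam10 with both signals at the floor had 307 and 313. Adam17, the enzyme that releases tumor necrosis factor and ligands of the epidermal growth factor receptor, had signals of 563 and 620 on its brightest probe set. Its remaining probe sets had 297 and 474, and 116 and 159, so that all 3 were higher in the graft of the hyperglycemic mouse, by log2 ratios of 0.14 to 0.67. Adam9, a widely expressed sheddase of growth factors, had signals of 4033 and 4139, a log2 ratio of 0.04. Adam15, which is known from endothelium and other tissues, had 866 and 1103 on a probe set of the x type, which can bind several transcripts, and its other probe sets pointed both ways. Adam19, which cleaves neuregulin, had 107 and 125. On the probe sets taken, the log2 ratios of Adam9, Adam17, Adam19 and Adam15 were at most 1.01 times the SD between probe sets. Adam12, Adam28 and Adam33 were below the floor on both arrays, with signals from 16.1 to 67.2.

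Of the ADAMs without a working zinc site, which act in cell adhesion and at synapses, Adam22 had signals of 137 in the normoglycemic and 120 in the hyperglycemic mouse. Adam11 had 98.9 and 36.5 on the probe set taken, at least 1.08-fold lower with the low signal raised to the floor. Its second probe set had a log2 ratio of 2.85, the opposite direction, so the direction of Adam11 cannot be given. Adam23 was below the floor on both arrays. Of 16 ADAM genes known from testis, sperm and epididymis, 15 were below the floor in both grafts. The exception was Adam4, with signals of 50.1 and 156 on its 1 probe set, at least 1.88-fold higher in the graft of the hyperglycemic mouse. Adamdec1, a decysin of macrophages and dendritic cells, was below the floor at 20.6 and 2.36.

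Among the MMPs, the gelatinases had similar signals in both grafts. Mmp2 and Mmp9 encode the gelatinases, which degrade denatured collagen and collagen of basement membranes, and Mmp9 is stored by neutrophils. Mmp2 had a signal of 95.8 in the normoglycemic and 111 in the hyperglycemic mouse, and Mmp9 had 120 and 144. Both pairs were just above the floor and differed by less than 1 SD between probe sets. Mmp14, the membrane-type enzyme that activates the precursor of Mmp2, had signals of 173 and 209, and Mmp24, a membrane-type enzyme known from the nervous system, had 172 and 251. A second probe set of Mmp24 had 124 and 173, a log2 ratio of 0.48 beside 0.55 on the first. Mmp17, anchored through a glycolipid, had signals of 139 and 79.2, at least 1.52-fold lower in the hyperglycemic mouse. Mmp16 was below the floor on both arrays. Mmp7, matrilysin, an epithelial enzyme that injured kidney tubules also make, had 107 and 123.

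Mmp19 and Mmp12 had the widest ratios of the measured members as deposited, and in both genes 1 of the 2 signals was below the floor. With signals under the floor set to it, the log2 ratio was 2.04 for Mmp19 and 0.66 for Mmp12, both under the 2.31 of Adam8. Mmp19, a secreted enzyme that cleaves basement membrane proteins and is found in macrophages and vessels, had a signal of 16.7 in the normoglycemic and 340 in the hyperglycemic mouse. This is at least 4.10-fold higher with the low signal raised to the floor. The second probe set of Mmp19 had 10.9 and 99.9, also with only the signal of the hyperglycemic mouse at the floor. Mmp12, the elastase of macrophages, had signals of 10.5 and 131, at least 1.58-fold higher. When the 75th percentile of each array served as the floor, neither gene reached it in either graft. Mmp8, the collagenase of neutrophils, had signals of 107 and 216, a 2.02-fold difference that was 1.60 times the SD between probe sets. It stands at the 2-fold limit, and of 10 alternative treatments 6 moved its value, all 6 to below 2-fold.

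Mmp8, Mmp12 and Mmp7 belong to a cluster of MMP genes on mouse chromosome 9, and the rest of the cluster was low in both grafts. In RefSeq order the genes with a probe set are Mmp13, Mmp12, Mmp1b, Mmp3, Mmp1a, Mmp10, Mmp8, Mmp20 and Mmp7. The cluster thus holds the collagenases, the stromelysins Mmp3 and Mmp10, which also activate other MMPs, the elastase, the matrilysin and Mmp20, an enzyme of tooth enamel. Mmp3, which fibroblasts and other cells make in response to interleukin-1, had signals of 74.2 in the normoglycemic and 54.6 in the hyperglycemic mouse. Mmp10 had 24.0 and 17.5, and Mmp13, the main collagenase of rodents, had 40.6 and 57.1. Mmp1a, Mmp1b and Mmp20 had signals of 2.36 and 49.4, 6.54 and 3.88, and 6.89 and 55.0. All 6 of these genes were below the floor on both arrays, and no fold is given for them. Mmp1a and Mmp1b are close copies of each other, so their probe sets may not separate them.

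**Figure D3:**
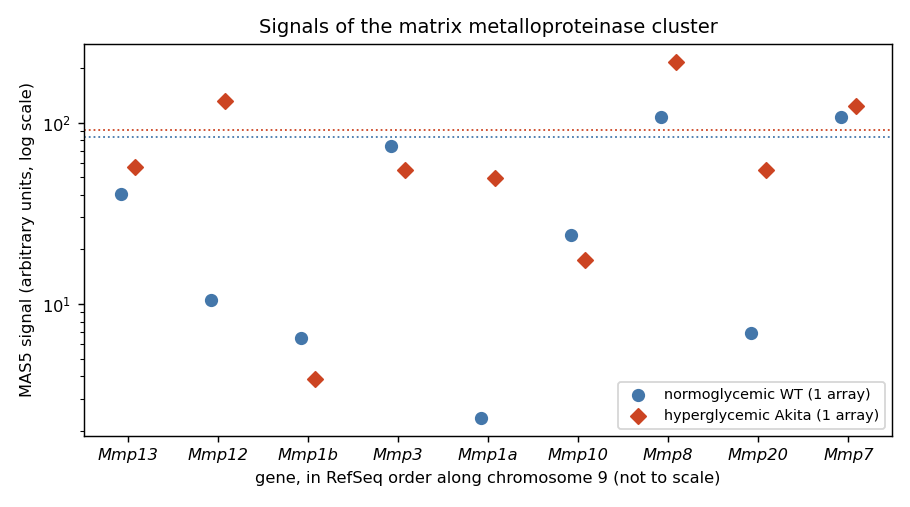
MAS5 signal (y axis, log scale) of 9 MMP genes of the chromosome 9 cluster in the graft of the normoglycemic mouse (circles) and of the hyperglycemic mouse (diamonds), 1 array each, in RefSeq order and not to scale, with dotted lines at the array medians. Mmp8 and Mmp7 lie above the lines on both arrays, Mmp12 on the array of the hyperglycemic mouse only, and the other 6 genes lie below.

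Promoters of RefSeq on GRCm38.p6, 250 bases before to 50 after the start, were found for 37 of 67 members. They were searched for TGACTCA on both strands, the binding letters of AP-1, for TATAAA on the strand of the gene, and for GAGGAAGT on both strands, the letters bound by PU.1. No match overlapped another in the printed windows. AP-1 letters were in at least 1 promoter of 7 of 9 genes of the cluster, of 2 of 28 other members and of 5.95% of 27025 genes. TATAAA was in 8 of 9, 2 of 28 and 9.77%, and the PU.1 letters in 3 of 9, 0 of 28 and 3.69%. Genes of the cluster arose by duplication and are not independent of each other. The following windows run from 100 bases before to 20 after the start, with matches in capitals. Mmp13, Mmp3 and Mmp10 are shown as genes that hold both AP-1 letters and TATAAA and were low in both grafts. Mmp7 is shown as one with both that reached the floor in both grafts, and its later start, without any of the 3 motifs, is left out. Mmp12 and Mmp8 are the measured genes of the cluster with ratios over 2-fold. Adam8 lies outside the cluster and had the widest ratio of the members at the floor on both arrays. Adamts3, Adamtsl4 and Adamtsl2, of which only Adamtsl2 held a motif (TATAAA), were also past 2-fold and are not shown.
Mmp13 (chr9:7272414-7272533, plus strand): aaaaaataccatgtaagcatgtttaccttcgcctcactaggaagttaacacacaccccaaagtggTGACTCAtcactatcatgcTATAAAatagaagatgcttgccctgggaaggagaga
Mmp3 (chr9:7445722-7445841, plus strand): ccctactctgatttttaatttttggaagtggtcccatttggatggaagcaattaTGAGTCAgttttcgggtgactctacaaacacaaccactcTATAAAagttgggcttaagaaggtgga
Mmp10 (chr9:7502242-7502361, plus strand): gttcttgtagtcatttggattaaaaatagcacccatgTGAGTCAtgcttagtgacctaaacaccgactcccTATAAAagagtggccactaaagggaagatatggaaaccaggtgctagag
Mmp7 (chr9:7691990-7692109, plus strand): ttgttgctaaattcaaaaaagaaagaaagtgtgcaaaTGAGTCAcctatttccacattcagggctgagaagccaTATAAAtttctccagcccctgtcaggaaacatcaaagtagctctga
Mmp12, later start (chr9:7347274-7347393, plus strand): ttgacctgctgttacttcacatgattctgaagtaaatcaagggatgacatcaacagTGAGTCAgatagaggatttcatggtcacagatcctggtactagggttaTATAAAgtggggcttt
Mmp12, earlier start (chr9:7344297-7344416, plus strand): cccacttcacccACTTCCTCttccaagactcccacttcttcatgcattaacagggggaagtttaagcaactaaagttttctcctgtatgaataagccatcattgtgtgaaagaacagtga
Mmp8 (chr9:7558329-7558448, plus strand): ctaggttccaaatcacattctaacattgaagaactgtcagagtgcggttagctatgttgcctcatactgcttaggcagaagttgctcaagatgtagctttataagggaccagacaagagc
Adam8 (chr7:139992543-139992662, minus strand): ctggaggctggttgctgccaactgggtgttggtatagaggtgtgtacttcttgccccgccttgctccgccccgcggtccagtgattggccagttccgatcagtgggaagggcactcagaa

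In Mmp13, Mmp3 and Mmp10 the AP-1 letters began 35, 46 and 63 bases before the start and TATAAA 16, 7 and 29 bases before it. In the later start of Mmp12 the AP-1 letters began 44 bases before the start, but TATAAA began 4 bases after it. The PU.1 letters of the earlier start of Mmp12 began 88 bases before it. The PU.1 letters of Mmp8 began 221 bases before the start and those of Mmp7 109 bases before its earlier start, both outside the printed windows. Mmp7 had similar signals in both grafts, 107 and 123. Adam8 had none of the 3 motifs in its window of 300 bases. A match gives only the letters and not the binding of a factor. Genes with both AP-1 and TATAAA letters had signals at the floor in both grafts (Mmp7), in 1 graft (Mmp12) or in neither (Mmp13, Mmp3, Mmp10, Mmp1a and Mmp1b).

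Among the ADAMTS genes, the measured proteoglycanases had similar signals in both grafts. Adamts1, an enzyme of kidney and vessels that cleaves versican and aggrecan, had a signal of 1522 in the normoglycemic and 1444 in the hyperglycemic mouse. Adamts9, a versican-cleaving enzyme, had 297 and 402, but a second probe set with both signals at the floor had 194 and 163. Adamts4 and Adamts5 encode the aggrecanases of cartilage. Adamts4 had signals of 109 and 145 on the probe set taken and 119 and 116 on its other probe set. Adamts5 had 199.6 and 207 on the probe set taken, 129 and 153 on a second probe set and 138 and 60.7 on another. Adamts15, also a proteoglycanase, had 177 and 209. All 5 genes differed by no more than 1.5-fold on the probe set taken, and Adamts9, Adamts4 and Adamts5 each had probe sets that pointed both ways. Adamts8 and Adamts20 were below the floor.

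Adamts16, a gene of developing kidney and gonads, had signals of 184 in the normoglycemic and 140 in the hyperglycemic mouse. Adamts10, which binds fibrillin, had 113 and 91.2, the latter just below the floor. Adamts6 had 57.3 and 112, at least 1.35-fold higher in the hyperglycemic mouse, but its other probe set had 75.5 and 58.7. Adamts3, which removes the N-terminal propeptide of procollagen, had 27.6 and 119, at least 1.43-fold higher, and its other probe set had 2.01 and 44.8. Both probe sets of Adamts3 were higher in the hyperglycemic mouse, but only 1 of these 4 signals reached the floor.

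The ADAMTSL genes encode matrix proteins that bind fibrillin and carry no protease domain, and they went both ways. Adamtsl4 had a signal of 87.4 in the normoglycemic and 191 in the hyperglycemic mouse, a 2.19-fold difference on its 1 probe set, with the lower signal just above the floor. It was 1.78 times the SD between probe sets, and of the 6 alternative treatments that moved its value, 2 left it over 2-fold. Adamtsl2, which binds fibrillin and a latent form of transforming growth factor beta, had 148 and 17.5, at least 1.62-fold lower in the hyperglycemic mouse. Adamtsl3 had 119 and 69.0, at least 1.30-fold lower. Each of these 3 genes had 1 probe set, so no second reading of the difference exists within the arrays.

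Agreement between probe sets of the same gene was limited at these signals. Of 29 members with more than 1 probe set, 18 had probe sets in both directions, counted at any signal. In Adam10, Adam19, Adamts6, Adamts10 and Mmp2 the opposite direction came only from a probe set below the floor on both arrays. In Adam12, Adam23, Adam28, Adamts12, Adamts18, Adamtsl1 and Mmp16 every probe set was below the floor on both arrays. Probe sets with at least 1 signal at the floor pointed both ways only in Adam11, Adam15, Adam22, Adamts4, Adamts5 and Adamts9. The same share over all genes with several probe sets was not taken, so the count cannot be called particular to these families. Adam22, slightly lower in the hyperglycemic mouse on the probe set taken, had a second probe set with signals of 9.77 and 131, and Adamtsl5, just below the floor at 81.0 and 91.1, had one with 43.2 and 100.1. Mmp19 is the 1 member over 2-fold for which a second probe set reached the floor in the same graft and in the same direction.

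**Figure D4:**
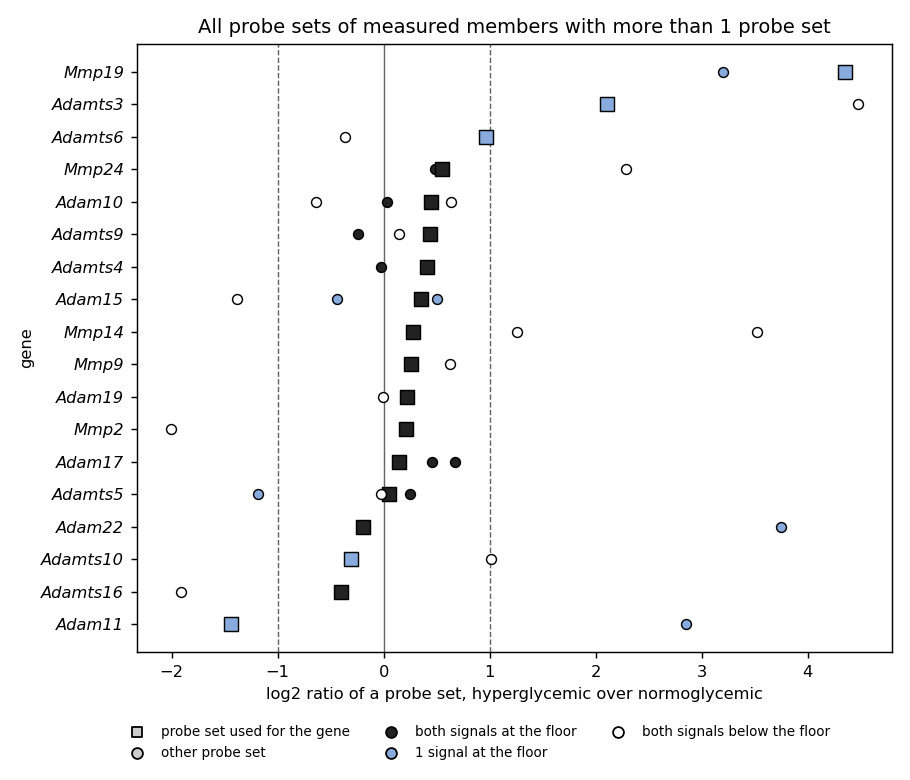
Log2 ratio of hyperglycemic over normoglycemic (x axis) of each probe set of the measured members with more than 1 probe set, with squares for the probe set used, circles for others, black for both signals at the floor, blue for 1 and white for neither, and dashed lines at 2-fold. Both probe sets of Mmp19 and of Adamts3 lie to the right of the 2-fold line, whereas those of Adam11 lie on opposite sides.

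The 37 members below the floor on both arrays had signals from 0.982 to 91.1. They were 9 MMP, 20 ADAM and 8 ADAMTS and ADAMTSL genes. Besides those named, they included Mmp23 at 65.6 in the normoglycemic and 82.7 in the hyperglycemic mouse, and Adamts7, an enzyme of vessel walls, at 53.0 and 3.54. Such signals lie in the range where probe sets of 1 gene scatter most, and a low signal does not show that a gene was silent. Of 84 genes of these families listed by role, 17 had no probe set with that single symbol and were not analysed here, among them Mmp15, Mmp25, Mmp28 and Adamts2.

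Among genes that hold these proteases in check or activate them, Timp1, Timp2, Cd44 and Plaur were over 2-fold higher in the graft of the hyperglycemic mouse. These were 4 of 12 genes at the floor on both arrays, beside 3.53% of all such genes. Over 2-fold lower were 0, beside 1.89%. The list held 18 genes, of which 17 had a probe set, and was chosen with earlier results of these data known. Timp1, a secreted inhibitor of most MMPs, had a signal of 161 in the normoglycemic and 550 in the hyperglycemic mouse. Timp3, the inhibitor bound to the matrix that also blocks Adam17, had 25667 and 16411, and all 4 of its probe sets were lower in the hyperglycemic mouse, by log2 ratios of -0.50 to -0.91. Timp3 was named after its values were seen, to complete the family. Timp2 had 424 and 3654 on the probe set taken, but 164 and 131 on another with both signals at the floor, and the log2 ratios of its 4 probe sets at the floor ranged from -0.32 to 3.11. Cd44, a receptor of hyaluronan at which Mmp9 can dock, had 910 and 3460. Plaur, the receptor that localizes activation of plasminogen, had 514 and 1240, and Lcn2, which protects Mmp9 from degradation, had 385 and 760. Reck, a membrane inhibitor of Mmp9 and Mmp14, had 179 and 98.7.

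Of 29 listed partners and substrates of the ADAM sheddases, 27 had a probe set, and 22 were at the floor on both arrays. Of these 22, 0 were over 2-fold higher and 0 were over 2-fold lower. The shares of all genes at the floor on both arrays were 3.53% and 1.89%, so these counts do not set the list apart. Btc, a ligand of the epidermal growth factor receptor, was over 2-fold lower at 212 and 87.8, with only the former at the floor. Among these 22, the widest ratios were those of Egf, a growth factor of the distal tubule, at 10552 in the normoglycemic and 5633 in the hyperglycemic mouse, Il6ra, the interleukin-6 receptor shed by Adam17 and Adam10, at 225 and 412, and Tnfrsf1b, a receptor of tumor necrosis factor, at 265 and 477. Cx3cl1, a chemokine released by Adam10 and Adam17, had 571 and 326, but 112 and 211 on another probe set. Notch1 had 293 and 451, and 51.9 and 241 on another probe set, with only the latter signal at the floor. F11r, a junction protein cleaved by sheddases, had 2536 and 1678, but 97.8 and 98.4 on a probe set of the x type.

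All 10 markers of macrophages and monocytes were at the floor on both arrays and over 2-fold higher in the graft of the hyperglycemic mouse, with log2 ratios of 1.85 to 4.03 and a summed signal of 11432 in the normoglycemic and 93060 in the hyperglycemic mouse. Much of this sum was Lyz2, and without it the sums over the other 9 were 5893 and 37073. Of 7 neutrophil markers with a probe set, S100a8, S100a9 and Csf3r were at the floor on both arrays and all 3 were over 2-fold higher, and Ltf reached the floor in the hyperglycemic mouse only, with sums over the 7 of 4369 and 17235. The remaining 3, Cxcr2, Ngp and Camp, were below the floor in both grafts. All 6 mast cell markers reached the floor in the hyperglycemic mouse only, with sums of 246 and 2028. Endothelial markers were lower in any amount at 5 of 5 with both signals at the floor, by log2 ratios of -0.19 to -0.83. Of all genes at the floor on both arrays, 5999 of 10816 were lower in any amount. Tek, at 331 and 80.2, and Pecam1, at 86.7 and 12.5, reached the floor in the normoglycemic mouse only. They were at least 3.62-fold and 1.06-fold lower in the hyperglycemic mouse. The fibroblast markers went both ways. Of 4 with both signals at the floor, Col1a2 and Col3a1 were over 2-fold lower, Pdgfra had a log2 ratio of -0.95 and Dcn of 0.20, while Col1a1 and Lum reached the floor in the hyperglycemic mouse only, at least 1.34-fold and 1.40-fold higher. These marker values stand beside those of Adam8, Mmp19, Mmp12 and Mmp8, which leukocytes are known to express, and their part in the differences of these 4 genes was not tested. Not every member named above for leukocytes was higher. Mmp9 had similar signals of 120 in the normoglycemic and 144 in the hyperglycemic mouse, and Adamdec1 was below the floor at 20.6 and 2.36.

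**Figure D5:**
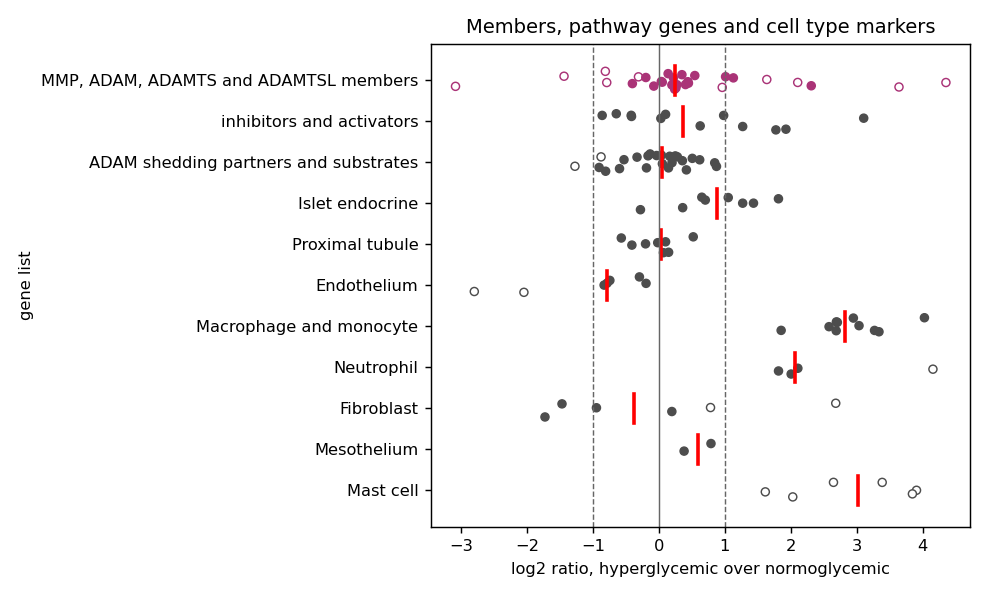
Log2 ratio of hyperglycemic over normoglycemic (x axis) of each measured gene for the members, the 2 lists of pathway genes and 8 lists of cell type markers, filled when both signals reached the array medians and open when 1 did, with red bars at list medians and dashed lines at 2-fold. The macrophage and monocyte markers lie between 1.85 and 4.03, while the members have a median of 0.25.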

How the data were processed

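RNA of 2 islet graft samples was measured on 1 MOE430 2.0 array per sample. The authors deposited MAS5 signal intensities (linear scale) in 1 table, and gave neither the version nor the settings of MAS5 in the sources used here. The methods name the Subio Platform. The mean without the lowest and highest 2% of all probe sets was 500.004 on both arrays, so that the arrays share a global scaling. Columns were matched to samples by their labels.

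Names came from the platform annotation. Other than controls, 34945 probe sets carried 1 symbol and were used, 932 carried several and 9160 none. All 67 member symbols matched RefSeq of GRCm38.p6. The members and the gene lists were chosen with earlier results of these data known. Every measured member was named, as were up to 6 genes of each pathway list with the widest ratios among those with both signals at the floor. More than 5 members below the floor were named, by role and after their values were seen. The scatter between probe sets was taken from pairs adjacent in mean signal within a gene, binned by the lower mean. Where 1 signal was below the floor it was set to the floor, and the fold is a lower bound. Precision is limited by the number of arrays, and with 1 per condition no test was made. Scripts were tested on simulated data. Alternatives covered scaling, loess (span 0.3, 3 iterations), floors, filters, fold limits and the choice of probe set. Python 3.11.15, numpy 2.4.6, pandas 2.3.3, statsmodels 0.14.6 and matplotlib 3.10.9 were used.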

Additional observations from a re-analysis of the deposited data

How the results depend on the processing

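No paired analysis was possible because each condition had 1 array, and for the same reason no sample was left out. The 7 of 30 members over 2-fold higher became 14 of 51 with the floor at the 25th percentile and 1 of 7 at the 75th. With no filter they became 16 of 67, and with both signals at the floor 3 of 20. Of 30 members, 4 were higher when signals under the floor were set to it and 3 with the array median added to both signals. Centring on islet endocrine genes gave 4 of 30, and a limit of 5-fold gave 2 of 30. Over all genes these shares were, in the same order, 12.6%, 3.52%, 13.6%, 3.53%, 4.33%, 3.91%, 3.34% and 2.42%. The 2 members over 2-fold lower became, in the same order, 5, 0, 9, 0, 0, 1, 7 and 1, and 4 at a limit of 1.5-fold. A filter on the mean log2 signal, added after seeing the data, gave 4 higher and 0 lower of 24 members. Over all genes these shares were 4.82% and 2.71%. Centring on islet endocrine genes turned the median log2 ratios to -0.63 for all measured members, -0.60 for MMP, -0.65 for ADAM and -0.73 for ADAMTS and ADAMTSL genes. With the median of all probe sets, the log2 ratio of Adam11 reversed to 0.71. No MMP reached the 75th percentile, so their median there has no value. The cause of these shifts was not tested, other than that filters change which genes are counted. Most measured members had signals of 64 to 256, where the scatter between probe sets is 1.55-fold.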
